A study of Arabidopsis thaliana with 9 samples.

Results

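COR15A (AT2G42540), COR47 (AT1G20440), KIN1 (AT5G15960) and KIN2 (AT5G15970) are 4 genes of Arabidopsis thaliana that are widely used as markers of cold, water deficit and abscisic acid. They were chosen by name as the array rows annotated to these loci, and each of the 4 had 1 row, among 16746 rows paired with exactly 1 gene. Root RNA was measured in the mutant lines hcr1-1 and hcr1-2, both in the Col-0 ecotype, and in wild type Col-0. The mutated gene, HCR1 (HYDRAULIC CONDUCTIVITY OF ROOT 1, AT3G24715), codes for a kinase of the Raf-like family that tunes how readily roots let water pass, and the labels do not place the lesion of either line. All plants were 21 days old and were kept in hydroponics with ample potassium at a pO2 of 11.1 ± 1.1%, at 20 °C, so no group was chilled, dried or given full oxygen, and the comparisons concern genotype within oxygen shortage. Each genotype had 3 arrays, called biological replicates in the labels, and each array held RNA from a pool of 5 plants.

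Abscisic acid is the hormone that plants make when water runs short. It is bound by PYR/PYL receptors, which then hold back a group of protein phosphatases and so free SnRK2 kinases to act on bZIP transcription factors at the promoters of protective genes. Cold reaches many of the same genes through the CBF (DREB1) transcription factors. The proteins made are mostly small and very hydrophilic, and they guard membranes and other proteins when cells lose water or freeze.

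The signals are log2 values that were already background-corrected and equalised between arrays when deposited, with medians per array from 3.41 to 3.48. Brightness of a row depends on its probes as well as on the transcript, so rows of different genes are not ranked by expression here. HCR1 itself stood at 3.02 ± 0.58 in hcr1-1, 4.30 ± 0.069 in hcr1-2 and 4.78 ± 0.16 in Col-0 (SD, n = 3 each). All 6 mutant arrays lay below the Col-0 arrays, beside 1.82% of all rows without overlap in either direction. The HCR1 log2 fold change against Col-0 was -1.76 in hcr1-1 (interval -2.26 to -1.26) and -0.48 in hcr1-2 (interval -0.98 to 0.025). In the mean of both lines it was -1.12. HCR1 did not pass the threshold of 0.05, with limma adjusted p of 0.130, 0.903 and 0.998 in that order. Of the root tissue markers, 4 of 14 were on tested rows, and PYK10, a beta-glucosidase abundant in roots, stood at 10.68 in hcr1-1, 10.78 in hcr1-2 and 10.59 in Col-0. All 4 had a log2 fold change above 0 in each line against Col-0, beside 50.9% of all rows in hcr1-1 and 53% in hcr1-2. Their median was 0.033 in hcr1-1 and 0.17 in hcr1-2, and 0 of the 4 passed the threshold. Of the shoot markers, 3 of 12 were on tested rows, and their mean level per array ran from 4.09 to 4.21 in hcr1-1, 4.08 to 4.46 in hcr1-2 and 4.25 to 4.31 in Col-0. Without detection calls it cannot be said from these values whether the shoot markers were absent. In a whole root, fewer cells of a type and less RNA per cell cannot be told apart.

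None of the 4 protection genes passed the test in any comparison between genotypes. By limma with Benjamini-Hochberg adjustment over all 16746 rows, at a threshold of 0.05, 0 of the 4 passed in either line against Col-0, in the average of the 2 lines against Col-0 or in hcr1-2 against hcr1-1. The background was also 0% of rows in each of these 4 comparisons. At an unadjusted limma p under 0.05 the count of the 4 genes was 0 in every comparison as well, beside 3.24% of all rows in hcr1-1 against Col-0, 5.4% in hcr1-2 against Col-0, 3.73% in the mean of both lines and 5.33% between the lines. All 16 of the 95% intervals held 0. A gene at 0 calls is not shown to be equal between genotypes, so each gene is given below with the interval of its difference.

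**Figure D1:**
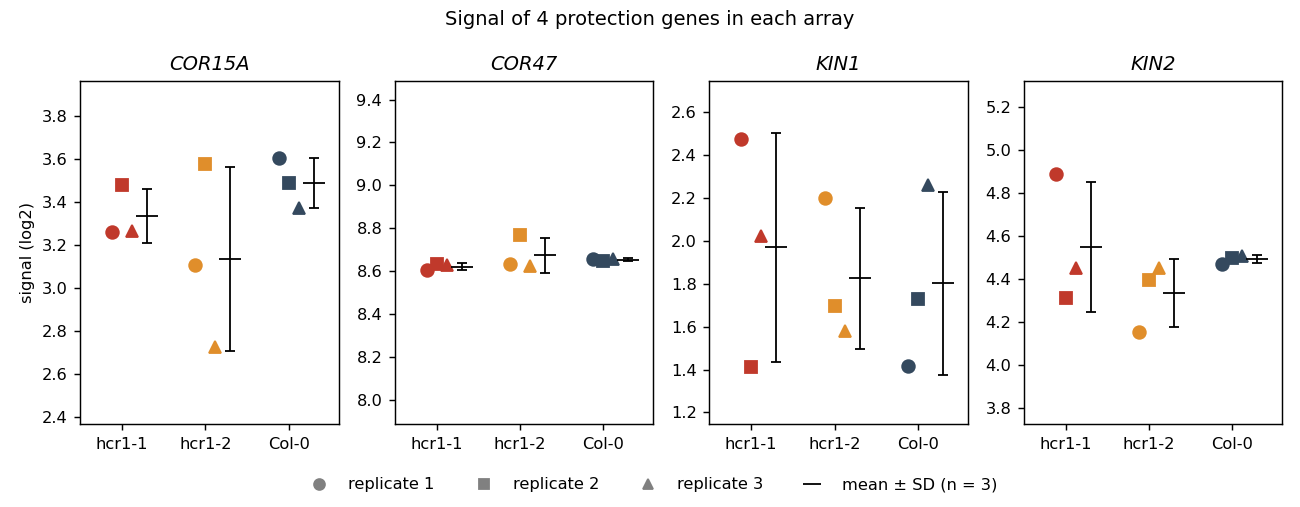
Log2 signal of COR15A, COR47, KIN1 and KIN2 in each of the 9 arrays, by genotype, with the mean and SD of 3 arrays at the right of each group; the marker shape is the replicate number and every panel spans the same number of log2 units. COR47 arrays lie between 8.60 and 8.77, while KIN1 arrays run from 1.41 to 2.48 with all 3 genotypes overlapping.

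COR15A encodes a chloroplast protein that stabilises membranes during freezing and drying. Its signal was 3.26, 3.48 and 3.26 in the hcr1-1 arrays, 3.10, 3.58 and 2.72 in the hcr1-2 arrays, and 3.60, 3.49 and 3.37 in the Col-0 arrays (replicates 1 to 3 in each). The lowest array was hcr1-2 replicate 3 and the highest was Col-0 replicate 1, yet hcr1-2 replicate 2 stood beside the upper Col-0 arrays, so the genotypes overlapped. The means were 3.34 ± 0.13 in hcr1-1, 3.13 ± 0.43 in hcr1-2 and 3.49 ± 0.12 in Col-0 (SD, n = 3 each), which puts Col-0 highest and hcr1-2 lowest.

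No difference in that order passed the test. The means of hcr1-2 and Col-0 lay 0.35 apart, beside an SD of 0.43 between the hcr1-2 arrays and of 0.12 between the Col-0 arrays. In hcr1-2 the COR15A log2 fold change against Col-0 was -0.35 (SE 0.18, 95% interval -0.76 to 0.051), with a limma adjusted p of 0.903 and an unadjusted p of 0.0811. That is 78.3% of the Col-0 signal, with an interval from 59.2% to 103.6%. In hcr1-1 it was -0.15 (interval -0.56 to 0.25), in the mean of both lines -0.25 (interval -0.60 to 0.097) and in hcr1-2 against hcr1-1 -0.20 (interval -0.60 to 0.20). Exact two-sided permutation of the arrays gave p = 0.3 for hcr1-2, p = 0.2 for hcr1-1 and p = 0.19 for both lines together, where the smallest p the arrays allow is 0.1 for 3 against 3 and 0.0119 for 6 against 3. The hcr1-2 value rested on its arrays unevenly: it was -0.15 without hcr1-2 replicate 3 and -0.57 without hcr1-2 replicate 2.

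COR47 encodes a dehydrin, an acidic member of the late embryogenesis abundant proteins with lysine-rich repeats. Its signal was 8.60, 8.63 and 8.63 in the hcr1-1 arrays, 8.63, 8.77 and 8.62 in the hcr1-2 arrays, and 8.66, 8.65 and 8.66 in the Col-0 arrays. The 3 Col-0 arrays lay within 0.013 of each other and the 3 hcr1-1 arrays within 0.029. All hcr1-1 arrays were below all Col-0 arrays, which made COR47 the only one of the 4 genes without overlap in that comparison, beside 4.02% of all rows that lay wholly below and 9.21% without overlap in either direction.

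The distance behind that separation was small. The means were 8.62 ± 0.016 in hcr1-1, 8.68 ± 0.082 in hcr1-2 and 8.65 ± 0.0070 in Col-0 (SD, n = 3 each). The COR47 log2 fold change was -0.032 in hcr1-1 (SE 0.10, interval -0.25 to 0.19), 0.022 in hcr1-2 (interval -0.20 to 0.24), -0.0049 in the mean of both lines (interval -0.19 to 0.18) and 0.053 in hcr1-2 against hcr1-1 (interval -0.16 to 0.27). The interval of the mean of both lines runs from 87.4% to 113.6% of the Col-0 signal, the narrowest of the 4 genes. Limma gave an adjusted p of 1.00 for hcr1-1, 0.988 for hcr1-2 and 0.998 for both lines together, and exact two-sided permutation gave p = 0.1, p = 1 and p = 0.964. Since limma moves the spread of each row towards that of other rows, its standard error for COR47 is larger than the scatter of these arrays alone. Without hcr1-2 replicate 2, the highest array, the log2 fold change in hcr1-2 was -0.025, so the order of hcr1-2 and Col-0 is not settled.

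KIN1 and KIN2 encode closely related small hydrophilic proteins, induced by cold and abscisic acid, and the gene table places them next to each other on chromosome 5. Probes of such similar genes can bind both transcripts, so the split of signal between the 2 rows is uncertain. KIN1 was a dim row, at a mean of 1.87 over the 9 arrays, where the lower quartile of all tested rows was 1.99. Its signal was 2.48, 1.41 and 2.02 in the hcr1-1 arrays, 2.20, 1.70 and 1.58 in the hcr1-2 arrays, and 1.42, 1.73 and 2.26 in the Col-0 arrays. Both the highest and the lowest array were hcr1-1 arrays, and every genotype had arrays on both sides of the overall mean.

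The KIN1 means were 1.97 ± 0.53 in hcr1-1, 1.82 ± 0.33 in hcr1-2 and 1.80 ± 0.43 in Col-0 (SD, n = 3 each). The genotype means thus lay within 0.17, against a spread of 0.44 (SD) between arrays of a genotype. The log2 fold change was 0.17 in hcr1-1 (SE 0.28, interval -0.44 to 0.77), 0.023 in hcr1-2 (interval -0.58 to 0.63), 0.096 in the mean of both lines (interval -0.43 to 0.62) and -0.15 in hcr1-2 against hcr1-1 (interval -0.75 to 0.46). These were the widest intervals of the 4 genes, and the one for hcr1-1 reaches from 73.9% to 171% of the Col-0 signal. Limma adjusted p values were 1.00, 0.997, 0.998 and 0.977 in that order, and exact two-sided permutation gave p = 0.8, p = 1, p = 0.774 and p = 0.8. The sign of each KIN1 difference turned when a single array was left out: without hcr1-1 replicate 1 the value in hcr1-1 was -0.084, and without Col-0 replicate 1 the value in hcr1-2 was -0.17.

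KIN2, also known as COR6.6, stood at 4.89, 4.31 and 4.45 in the hcr1-1 arrays, 4.15, 4.39 and 4.45 in the hcr1-2 arrays, and 4.47, 4.50 and 4.51 in the Col-0 arrays. The Col-0 arrays lay within 0.037 of each other, while the hcr1-1 arrays spanned 0.58 because replicate 1 stood far above the other arrays. All 3 hcr1-2 arrays were below all 3 Col-0 arrays, the only such case among the 4 genes in that comparison, beside 4.34% of all rows wholly below and 10.4% without overlap in either direction. The means were 4.55 ± 0.30 in hcr1-1, 4.33 ± 0.16 in hcr1-2 and 4.49 ± 0.019 in Col-0 (SD, n = 3 each).

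Despite that separation the KIN2 difference did not pass. In hcr1-2 the log2 fold change was -0.16 (SE 0.15, interval -0.49 to 0.17), or 89.5% of the Col-0 signal, with a limma adjusted p of 0.941 and an exact two-sided permutation p = 0.1, the smallest that 3 against 3 can give. In hcr1-1 it was 0.056 (interval -0.28 to 0.39), in the mean of both lines -0.052 (interval -0.34 to 0.23) and in hcr1-2 against hcr1-1 -0.22 (interval -0.55 to 0.12). The first of these turned to -0.11 and the last shrank to -0.045 without hcr1-1 replicate 1. The hcr1-2 value also rested on its arrays unevenly. It was -0.22 without hcr1-2 replicate 3 and -0.071 without hcr1-2 replicate 1, the lowest KIN2 array at 4.15.

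**Figure D2:**
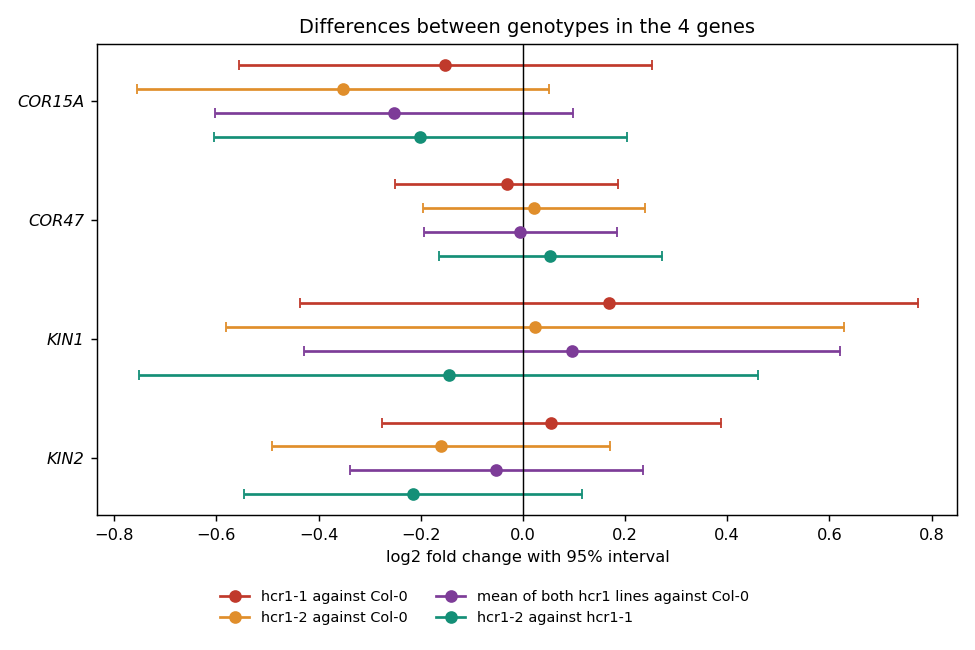
Log2 fold change (x axis) of each gene in 4 comparisons, with points for the limma estimate and bars for its 95% interval. Every bar crosses 0; the KIN1 bars are the widest and the COR47 bars the narrowest, and the COR15A bar for hcr1-2 against Col-0 ends at 0.051.

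Set side by side, the 4 genes did not share a direction. In hcr1-1 against Col-0, KIN1 and KIN2 were above 0 and COR15A and COR47 below, beside 50.9% of all rows above 0. In hcr1-2 against Col-0, COR47 and KIN1 were above 0 and COR15A and KIN2 below, beside 53% of all rows above 0. In the mean of both lines 1 of the 4, KIN1, was above 0 (52.9% of all rows), and between hcr1-2 and hcr1-1 1 of the 4, COR47, was above 0 (51.8% of all rows). In those last comparisons the arrays of the 4 genes overlapped throughout, where 1.82% of all rows in the mean of both lines and 9.85% between the lines did not overlap. The comparisons with Col-0 share the same 3 Col-0 arrays. The median of the 4 log2 fold changes was 0.012 in hcr1-1, -0.069 in hcr1-2, -0.028 in the mean of both lines and -0.17 between hcr1-2 and hcr1-1, where the medians of all tested rows were 0.0029, 0.011, 0.0089 and 0.0066.

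The genes differed more in how much they varied between arrays of the same genotype. Each array held its own pool, so variation between pools and array noise cannot be told apart. The SD within genotypes was 0.44 for KIN1, 0.27 for COR15A, 0.20 for KIN2 and 0.048 for COR47. Dim and bright rows scatter differently on such arrays, so each was set beside the nearest rows in mean signal (500 rows, or 418 for COR47 at the bright end). KIN1 had 2.07 times the median SD of its neighbours in brightness and exceeded 97.6% of them. COR47 had 0.482 times the median SD of its neighbours and exceeded only 5.74%. COR15A and KIN2 were ordinary in this respect, at 1.19 and 1.11 times the median. On the linear scale the highest array was 2.09-fold above the lowest for KIN1, 1.84-fold for COR15A, 1.66-fold for KIN2 and 1.12-fold for COR47.

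**Figure D3:**
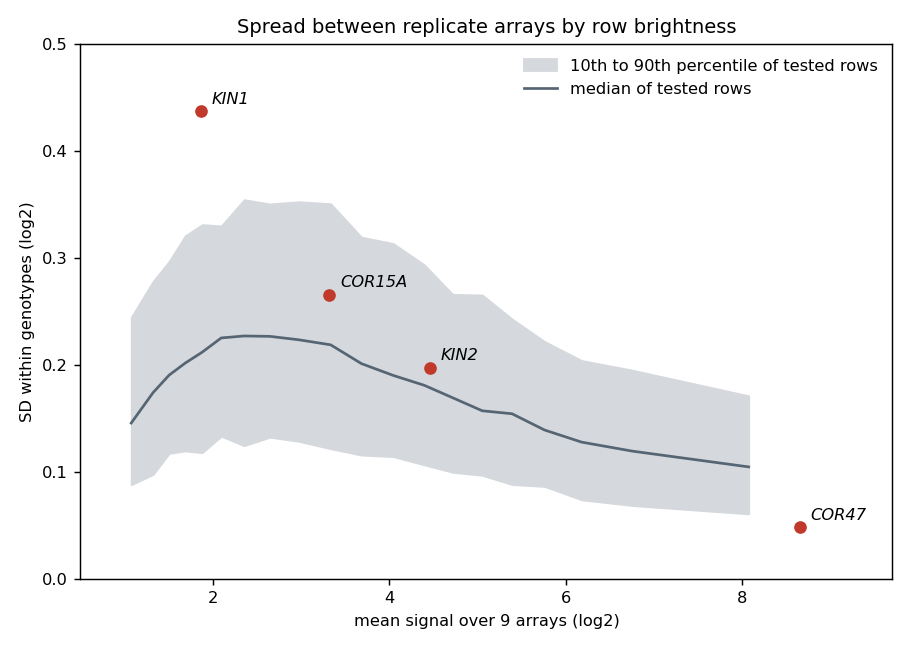
SD within genotypes (y axis, log2 units) against mean signal over the 9 arrays (x axis, log2 units); the line is the median and the band the 10th to 90th percentile of the tested rows in 20 bins of brightness, and the labelled points are the 4 genes. KIN1 at an SD of 0.44 lies above the band and COR47 at 0.048 below the level of the band at its bright end.

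Relations among the 4 genes across the arrays were examined next, as 6 pairs plus 4 relations with the mean of the core hypoxia genes, which is 10 in all. COR15A and COR47 had a Pearson r of 0.50 and a Spearman rho of 0.72 over the 9 arrays (exact two-sided permutation p = 0.143 and p = 0.0369, adjusted over the 10 relations 0.717 and 0.184). After the genotype means were removed their r was 0.86. Both genes spread most in hcr1-2, with SDs of 0.43 for COR15A and 0.082 for COR47, so this r rests largely on the hcr1-2 arrays. Without the 2 arrays farthest from the COR15A median, hcr1-2 replicates 1 and 3, the r of the signals themselves was 0.62. That kept hcr1-2 replicate 2, the highest COR47 array at 8.77. KIN1 and KIN2, the adjacent pair, had an r of 0.41 and a rho of 0.45 (exact permutation p = 0.291 and p = 0.23, adjusted 0.737 and 0.625), which turned to -0.48 without the 2 arrays farthest from the KIN1 median and so rests on those arrays. The other pairs were COR15A and KIN1 at an r of -0.23 (rho -0.43), COR47 and KIN1 at -0.27 (rho -0.15), COR47 and KIN2 at -0.26 (rho -0.10) and COR15A and KIN2 at 0.039 (rho 0.067), with exact permutation p values adjusted over the 10 relations of 0.625 or more. Without the 2 arrays farthest from the median of the first gene named, these r were -0.83, 0.14, 0.43 and -0.57. No relation passed the adjustment. The permutations for all 10 relations ran over the 9 arrays regardless of genotype. Their p values therefore do not separate genotype differences from likeness between arrays.

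The core hypoxia genes are switched on in plant cells when oxygen falls. Their mean relative to Col-0 was -0.072, -1.23 and -0.0062 in the hcr1-1 arrays, -1.18, -1.08 and -0.52 in the hcr1-2 arrays, and 0.22, -0.59 and 0.36 in the Col-0 arrays, over 24 measured genes. KIN2 had an r of 0.60 and a rho of 0.72 with it (exact permutation p = 0.069 and p = 0.0369, adjusted 0.69 and 0.184). After removal of genotype means the r was 0.56. Without the 2 arrays farthest from the median of the hypoxia mean, Col-0 replicates 1 and 3, the r of the signals themselves was 0.75. That kept the highest and lowest KIN2 arrays, hcr1-1 replicate 1 at 4.89 and hcr1-2 replicate 1 at 4.15. KIN1 had an r of 0.30, COR15A 0.056 and COR47 -0.27 (exact permutation p = 0.418, p = 0.897 and p = 0.59, adjusted 0.737, 0.91 and 0.737). The part of the hypoxia genes in the KIN2 values was not tested.

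The rows most like each gene across the 9 arrays were sought among 8371 rows of at least median brightness. For COR15A these were AT4G38490 (r of 0.91), 2A6 (AT1G03410, r of 0.90) and AT5G45470 (r of 0.87). For COR47 they were AT1G73885 (r of 0.95), AT5G61530 (r of 0.94) and SWEETIE (AT1G67140, r of 0.93). For KIN1 they were AT1G18390 (r of 0.93), AT5G38010 (r of 0.90) and AT5G05550 (r of 0.88), and for KIN2 AT3G11510 (r of 0.95), AT1G45688 (r of 0.94) and AT4G18070 (r of 0.94). They are the highest of 8371 correlations over 9 arrays and are given as a description. Rows with an r over 0.9 numbered 18 for KIN2, 7 for COR47, 1 for COR15A and 1 for KIN1. Dimmer rows, COR15B, LEA4-1, LEA18 and COR27 among them, were not in this search.

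Other genes of the pathway came from 5 lists with 110 genes, of which 13 were on tested rows, the 4 genes above included. The receptors, phosphatases, SnRK2 kinases and bZIP factors of abscisic acid signalling (28 listed) and the enzymes of its synthesis and breakdown (15 listed) had 0 genes on rows with exactly 1 gene and were not analysed here, nor were the CBF genes. Of the 9 further genes, 0 passed the limma test over all rows in any of the 4 comparisons, while at an unadjusted p under 0.05 the count was 1 in hcr1-1 against Col-0, 0 in hcr1-2 against Col-0, 0 in the mean of both lines and 1 between the lines, beside the 3.24%, 5.4%, 3.73% and 5.33% of all rows given above. Their median log2 fold change was 0.037 in hcr1-1, -0.081 in hcr1-2, 0.033 in the mean of both lines and -0.093 in hcr1-2 against hcr1-1, with 5, 2, 5 and 3 of the 9 above 0, beside 50.9%, 53%, 52.9% and 51.8% of all rows.

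Of the protective proteins 5 further genes were measured. COR15B (AT2G42530), the close relative and next gene of COR15A on chromosome 2, was dim at 1.39 ± 0.11 in hcr1-1, 1.61 ± 0.25 in hcr1-2 and 1.44 ± 0.16 in Col-0 (SD, n = 3 each). Its log2 fold change in hcr1-2 was 0.17 (interval -0.15 to 0.49), and -0.043 in hcr1-1. The hcr1-2 value was 0.031 without hcr1-2 replicate 1, 0.27 without hcr1-2 replicate 2 and 0.080 with array weights. XERO2 (AT3G50970), a dehydrin like COR47, had 0.091 (interval -0.28 to 0.46) in hcr1-1 and -0.16 (interval -0.54 to 0.21) in hcr1-2. The late embryogenesis abundant proteins LEA4-1 (AT1G32560) and LEA18 (AT2G35300) had -0.014 and -0.011 in hcr1-1 and -0.076 and -0.10 in hcr1-2. DI21 (AT4G15910), a drought-induced gene, had 0.15 (interval -0.16 to 0.45) in hcr1-1 and -0.081 (interval -0.39 to 0.22) in hcr1-2. The neighbour of COR47, the dehydrin gene ERD10, was not on a tested row.

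Of the list of osmolyte and sugar genes only SWEET17 (AT4G15920), a fructose transporter of the vacuole, was on a tested row, with log2 fold changes of 0.037 in hcr1-1 and 0.10 (interval -0.16 to 0.36) in hcr1-2. The regulators were represented by 3 of 22 genes. ZAT10 (AT1G27730), a zinc finger repressor induced by many stresses, had signals of 5.96, 5.57 and 4.94 in the hcr1-1 arrays, 4.57, 4.81 and 4.89 in the hcr1-2 arrays, and 5.22, 4.97 and 4.69 in the Col-0 arrays. The hcr1-2 arrays lay wholly below the hcr1-1 arrays, as did 4.54% of all rows, and both lines overlapped Col-0. Its log2 fold change was 0.53 in hcr1-1 (SE 0.23, interval 0.028 to 1.02, limma unadjusted p of 0.0402 and adjusted p of 1.00), -0.20 in hcr1-2 (interval -0.70 to 0.29) and -0.73 in hcr1-2 against hcr1-1 (SE 0.23, interval -1.22 to -0.23, unadjusted p of 0.00801 and adjusted p of 0.857). Without hcr1-1 replicate 1 these values were 0.29 in hcr1-1 and -0.49 between the lines, and without hcr1-1 replicate 3 they were 0.80 and -1.002 (limma adjusted p of 0.999 and 0.736).

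COR27 (AT5G42900) and COR28 (AT4G33980), related cold-regulated genes that act on the circadian clock and light signalling, completed the regulators. COR27 had log2 fold changes of 0.13 (interval -0.18 to 0.44) in hcr1-1 and -0.017 (interval -0.32 to 0.29) in hcr1-2. COR28 had -0.21 (interval -0.48 to 0.069) and -0.14 (interval -0.42 to 0.13). Neither passed in any comparison.

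**Figure D4:**
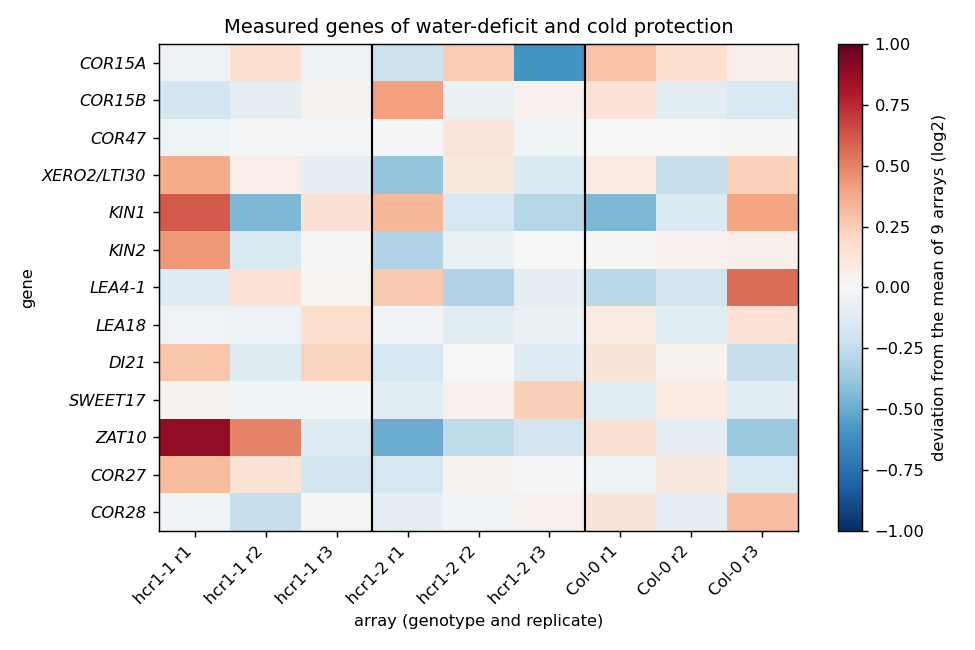
Deviation of each measured gene of the pathway lists from its own mean over 9 arrays (colour, log2 units), with genes in rows and arrays in columns grouped by genotype. ZAT10 is highest in hcr1-1 replicate 1 at a signal of 5.96, and the COR47 row is nearly even. KIN2 lies below its mean of 4.46 in all 3 hcr1-2 arrays and above it in all 3 Col-0 arrays. The nearest of these, hcr1-2 replicate 3 at 4.45 and Col-0 replicate 1 at 4.47, lie almost on the mean. The hcr1-1 replicates 2 and 3 are below that mean too.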

How the data were processed

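Each root sample was hybridised to 1 Affymetrix whole-transcript array strip for Arabidopsis, from 100 ng of RNA per the labels. The deposited values are log2 signals made by the authors with Affymetrix Expression Console and RMA, per the submitters' processing notes; versions, settings and genome build are not given in the sources used here. RMA equalises the arrays' distributions and condenses the probes of a row, which hides changes in total signal and compresses dim rows. The number of arrays limits the precision.

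Of 38408 rows, 16746 were paired with 1 gene by the platform annotation, 758 with several and 20904 with none listed. Names were updated through a RefSeq gene table (TAIR10.1), which matched 16601 rows and gave neighbouring genes. Genotypes and replicate numbers came from sample titles. Limma 3.58.1 in R 4.3.3 (lmFit, contrasts, eBayes) was fitted over all 9 arrays, two-sided, with Benjamini-Hochberg adjustment over all 16746 rows. Exact permutation over arrays was used for single values and correlations. The fit was tested on simulated data for the mean of both lines over 16746 rows. It found 51% of 1.5-fold and 89.6% of 2-fold changes among 200 changed rows, rates that would be lower with fewer changes. In the data themselves 0 rows passed in that comparison, and HCR1, at a log2 fold change of -1.12, had a limma adjusted p of 0.998. The simulated rates are therefore not the power of the test in these data.

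The 4 genes and the lists were chosen with earlier results of these data known. Genes of a list were named where 8 or fewer were measured, and otherwise the first 8 in list order. The 3 rows with the highest Pearson r to each gene were named. The alternatives were a fit of only the groups compared, a block for the replicate number, quantile normalization, median centring, dimmer rows left out, all rows tested, trended and robust variances, array weights and each array left out.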

Additional observations from a re-analysis of the deposited data

How the results depend on the processing

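No alternative brought COR15A, COR47, KIN1 or KIN2 past the threshold: the smallest limma adjusted p among the alternatives was 0.683. Apart from left-out arrays, 3 of 116 values of these genes changed sign. Only quantile normalization, median centring and array weights can move a value. The other settings alter the spread or the rows tested and repeat the main value, so their unchanged signs carry no information. COR47 in the mean of both lines was 0.0099 with array weights, and KIN1 in hcr1-2 was -0.011 with quantile normalization and -0.0065 with array weights. With array weights LEA4-1 and LEA18 in hcr1-1 stood at 0.035 and 0.0083, and COR27 in hcr1-2 at 0.0066. Leaving out arrays changed the sign of 14 of 144 values of the 4 genes. The 144 include arrays of a genotype outside the comparison, whose removal cannot move the value. The ranges were -0.42 to 0.0048 for COR15A between the lines, -0.025 to 0.048 for COR47 in hcr1-2 and -0.028 to 0.0082 in the mean of both lines. KIN1 ran from -0.084 to 0.45 in hcr1-1, -0.17 to 0.25 in hcr1-2, -0.096 to 0.32 in the mean of both lines and -0.42 to 0.11 between the lines. KIN2 ran from -0.11 to 0.18 in hcr1-1 and -0.14 to 0.0079 in the mean of both lines. In hcr1-1, COR15B ran from -0.10 to 0.049, XERO2 from -0.038 to 0.19, LEA4-1 from -0.17 to 0.25 and LEA18 from -0.084 to 0.041. In hcr1-2, LEA4-1 ran from -0.23 to 0.19 and COR27 from -0.073 to 0.045. Beyond the left-out arrays themselves the cause was not tested.

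The count of genes past the threshold was 0 in each comparison. In hcr1-1 against Col-0 it was 1 with dimmer rows left out and 1 with trended and robust variances, and 0 to 1 as arrays were left out. Each time the row was HCR1, the mutated gene, at limma adjusted p of 0.0479, 0.012 and, without hcr1-1 replicate 3, 0.0151. In the mean of both lines it was 0 to 2, with 2 without hcr1-1 replicate 3, HCR1 among them (limma adjusted p of 0.0448). The replicate block gave 0 in all 4 comparisons, with 553 rows at an unadjusted p under 0.05 in hcr1-1, 926 in hcr1-2, 658 in the mean of both lines and 938 between the lines. Arrays of the same replicate number had deviations correlated from -0.19 to 0.16 (median 0.0030). Arrays of different numbers had -0.20 to 0.24 (median -0.00045). Since these ranges overlapped and both medians lay near 0, the numbers were not taken as pairs, although 5 of 9 arrays correlated best with their own number. COR15A and KIN1 lay below the median brightness and have no value with dimmer rows left out. No gene of the 4 had a second row, so that alternative was not run.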

Other observations

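One array stood out across the measured genes of the pathway, a pattern noticed after the values were seen. In hcr1-1 replicate 1, 6 of the 13 genes had their highest value of all 9 arrays, namely KIN1, KIN2, XERO2, DI21, ZAT10 and COR27, while 11.1% of all tested rows were highest in that array. The mean deviation of the 13 genes in that array was 0.19, against -0.094 to 0.054 in the other arrays. ZAT10 at 5.96 (mean of 9 arrays 5.07) and KIN1 at 2.48 (mean 1.87) lay farthest above their means and weigh most in that figure. Both rows scatter widely within genotypes, at 2.21 and 2.07 times the median SD of rows of like brightness. In the same array 2 of the 13, COR47 at 8.60 and COR15B at 1.29, had their lowest value, beside 11.6% of all tested rows, and COR15A stood at 3.26. In hcr1-1 replicates 2 and 3 the mean deviations were -0.012 and 0.0067. The array's core hypoxia mean was -0.072 relative to Col-0, and its weight in the array-weight fit was 1.05, within the 0.472 to 1.47 of all arrays.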
